A study of Homo sapiens with 16 samples.

Results

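The comparison described here is between the lines without prednisolone. It sets 4 arrays of untreated Nalm6 cells labelled CASP1 against 4 arrays of untreated control Nalm6 cells, 8 of the 16 arrays of the series. The arrays were chosen by their sample titles and by no measured value. Nalm6 is an established human B-cell precursor acute lymphoblastic leukaemia line. The first line is labelled as carrying active, overexpressed CASP1 and the second as control. Both grew in RPMI1640 with 10% heat-inactivated foetal bovine serum and glutamine, and total RNA was hybridised to Affymetrix PrimeView arrays. The other 8 arrays hold the same lines after 24 hours with prednisolone and are used below for comparison alone. Prednisolone is a synthetic glucocorticoid, spelled as a form of prednisone in some labels. The 24 hours are listed for the untreated arrays too. Each label stands for 1 line; the sources used here give neither the vector nor the promoter, nor whether a line is 1 clone. Nor do the labels say that the 4 arrays of a group came from separate cultures, so the p-values measure the spread between these arrays, which may be technical.

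Caspase 1 is the protease that inflammasomes switch on: sensor proteins such as NLRP3 assemble with the adaptor PYCARD, the caspase cuts itself out of its precursor, and it then matures interleukin 1 beta and interleukin 18 and opens gasdermin pores. The title of the series asks whether caspase 1 cleaves the glucocorticoid receptor, the product of NR3C1, through which drugs such as prednisolone kill leukaemic lymphoblasts. Cleavage acts on protein and was not measured by these arrays. Below, a signal is a log2 RMA value, a difference is the mean signal of cells labelled CASP1 minus that of control cells, so that a difference of 1 is a 2-fold change, SE is the standard error of a difference, and a gene is called where limma's test gave an adjusted p under 0.05 over all 18132 genes.

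CASP1 was lower, not higher, in the cells labelled CASP1. Its signal was 7.69, 7.95, 7.59 and 7.76 on the control arrays and 6.05, 5.45, 5.62 and 5.64 on the arrays labelled CASP1. The groups did not overlap, and the difference was -2.06 (SE 0.13, 4.16-fold lower, adjusted p = 2.33e-08); the exact two-sided permutation test over the 8 arrays gave p = 0.0286, the smallest that 4 against 4 can give. CASP1 has 9 probe sets: the difference was called for 7 of them, always lower, and the other 2 had means of at most 2.68 in both lines. Which part of the gene the construct carries and where the probes lie on it are not given, so these arrays cannot show whether introduced CASP1 RNA was present. Nor can they show whether the labels of the lines were exchanged, which would turn every direction below. Each line is named by its label, and the directions follow it, although the CASP1 signal goes against it.

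The neighbours of CASP1 on chromosome 11 were measured beside it. CARD16, a decoy made of the caspase 1 recruitment domain, had signals of 4.91 to 5.81 in control cells and 4.30 to 4.82 in cells labelled CASP1, without overlap, and a difference of -0.95 (SE 0.18, adjusted p = 0.00134). Of its 2 probe sets 1 was called, and the other gave -0.03 at means of at most 2.67. On the prednisolone arrays the CARD16 difference was -0.04 (adjusted p = 0.912). The change between the untreated and the treated difference was not called by limma's test (adjusted p = 0.123). CASP4, the sensor of cytosolic lipopolysaccharide, differed by -0.40 (SE 0.15, adjusted p = 0.102), and its groups overlapped. All 7 of its probe sets had a negative difference, and CASP4 was called with the replicate number as a block (adjusted p = 0.00121), with its probe sets averaged (-0.43, adjusted p = 0.00463), without control replicate 1 (-0.51, adjusted p = 0.0359) and without all arrays of replicate number 1 (-0.39, adjusted p = 0.00722). CARD17P, CARD18, CASP5 and CASP12 had means of at most 3.78 in both lines and were not called, with differences from -0.34 to 0.04.

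**Figure D1:**
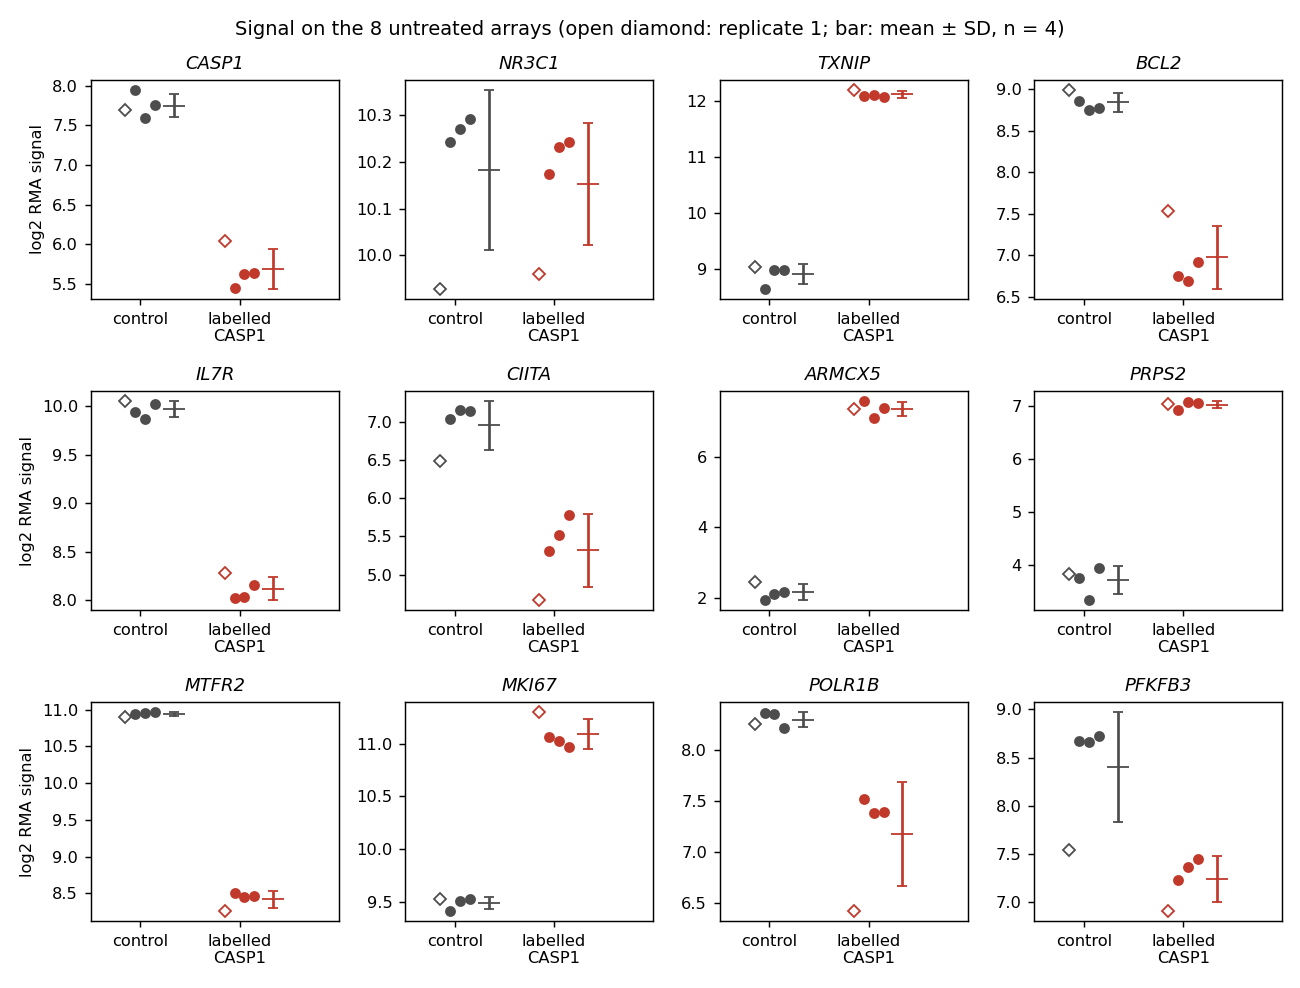
Log2 RMA signal (vertical axis, a separate range for each gene) of 12 genes on the 4 untreated control arrays (grey) and the 4 untreated arrays labelled CASP1 (red); open diamonds are replicate 1, and the bar beside each group is its mean with 1 SD. CASP1 lay at 7.59 to 7.95 in control cells and at 5.45 to 6.05 in cells labelled CASP1, NR3C1 overlapped between the lines, and PFKFB3 shows how far replicate 1 of the control cells (7.55) lay from the other control arrays (8.67 to 8.73).

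In the list of 18 inflammasome sensors and adaptors 4 were called higher (22.2%, against 5.87% of all genes) and 0 lower, with a list median of 0.08. NLRP3, the sensor named in the title, read 4.29 to 4.66 in control cells and 4.49 to 4.66 in cells labelled CASP1, and its difference of 0.10 was not called (adjusted p = 0.712). PYCARD was higher by 0.47 (adjusted p = 0.0229), NLRP1 by 0.74 (adjusted p = 0.0218) and MEFV, the pyrin sensor, by 0.45 (adjusted p = 0.0196), and the largest member, TXNIP, is described below. These 3 calls were weak. PYCARD lost its call without control replicate 2, 3 or 4 or labelled replicate 1 (0.34 to 0.47), NLRP1 without control replicate 1 or labelled replicate 3 or 4 (0.62 to 0.71), and MEFV without control replicate 2 or labelled replicate 1 or 3 (0.34 to 0.44). With probe sets averaged, NLRP1 (0.82, adjusted p = 0.063) and MEFV (0.20, adjusted p = 0.139) were not called either. The list count was 2 without control replicate 2, labelled replicate 1 or labelled replicate 3.

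Among 20 outputs, 2 were called higher and 2 lower, 10% each beside the 5.87% and 8.2% of all genes, the former 1 without control replicate 2 or 3 or without any 1 labelled replicate. IL1B, which encodes the interleukin 1 beta precursor, read 6.71, 7.24, 7.35 and 7.41 in control cells and 5.37, 5.05, 5.26 and 5.52 in cells labelled CASP1. It was lower by -1.88 (SE 0.21, 3.68-fold, adjusted p = 9.89e-06) with no overlap. GSDME, a gasdermin that caspase 3 cleaves, was lower by -1.08 (adjusted p = 0.00381) from low signals of 3.69 to 4.59 in control cells, and GSDMB was higher by 0.77 (adjusted p = 0.000179).

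In untreated cells the receptor RNA did not differ beyond the spread between arrays. NR3C1 read 9.93, 10.24, 10.27 and 10.29 in control cells and 9.96, 10.18, 10.23 and 10.24 in cells labelled CASP1, with replicate 1 lowest in both lines, and the difference was -0.03 (SE 0.098, adjusted p = 0.915; 0 of 10 probe sets called). Of 22 genes of the receptor and its chaperones, 0 were called higher and 4 lower (18.2%, against 8.2% of all genes), and 7 were lower without the arrays of replicate number 1. NR3C2, the related mineralocorticoid receptor, was lower by -0.65 (adjusted p = 0.00446), but with its probe sets averaged by -0.24 (adjusted p = 0.0717). FKBP5, a co-chaperone that restrains the receptor and is itself induced by it, was lower by -0.57 (adjusted p = 0.027), but its groups overlapped, and the call ended without control replicate 1 or 3 or labelled replicate 2, 3 or 4 (-0.58 to -0.43, adjusted p = 0.0501 to 0.1).

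Over all genes, 2552 of 18132 were called, which is 14.1%, with 1065 higher (5.87%) and 1487 lower (8.2%) in cells labelled CASP1. The change reached 2-fold for 112 of the higher and 114 of the lower genes, and the median size of a called difference was 0.51. The groups of 4 did not overlap for 2370 of the called genes and for 3940 of all genes (21.7%). Centring each array on its 75th percentile turned the split to 1439 higher and 1228 lower, from 41.7% to 54.0% higher, and moved the median difference of all genes from 0.0066 to 0.0583. Without the arrays of replicate number 1, 3876 genes were called.

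**Figure D2:**
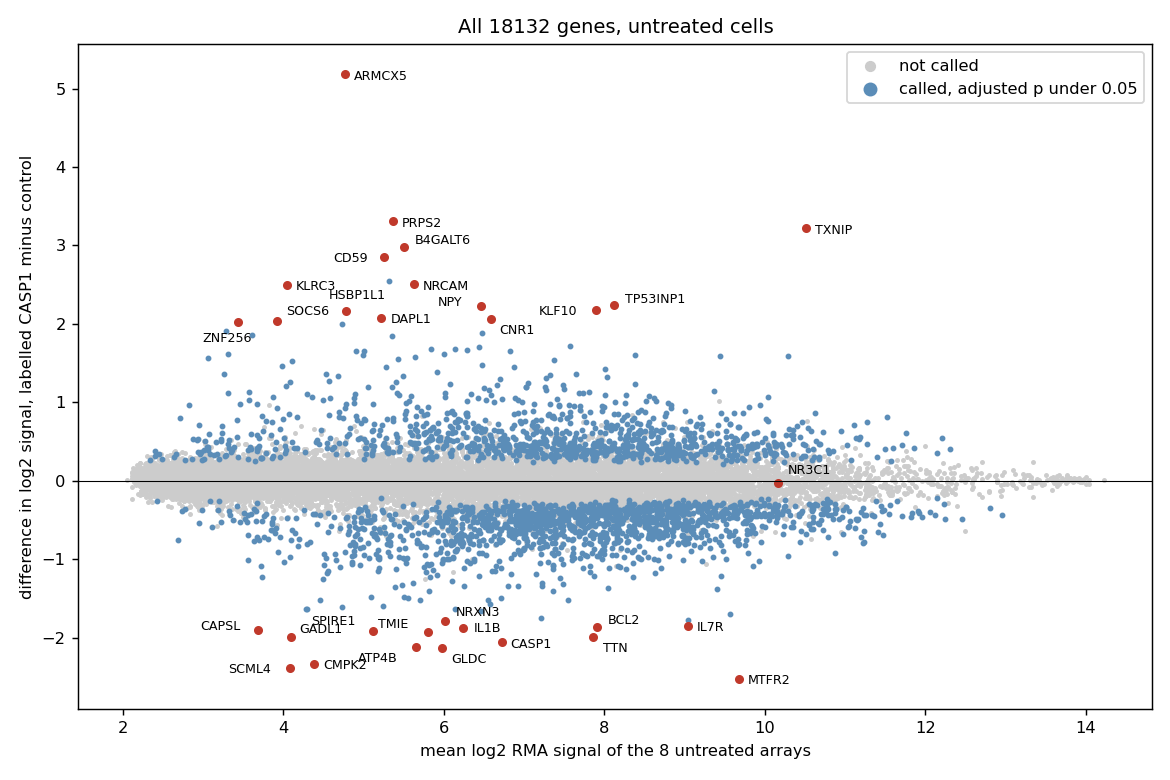
Difference in log2 signal, labelled CASP1 minus control (vertical axis), against the mean log2 RMA signal of the 8 untreated arrays (horizontal axis) for 18132 genes; called genes are blue, the genes named as the largest rises and falls and NR3C1 red. ARMCX5 (5.18), PRPS2 (3.31) and TXNIP (3.22) lie highest, MTFR2 (-2.52) lowest, and NR3C1 lies at -0.03.

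Markers of B-cell precursors had high signals, which does not identify the line, and 1 replicate number stood apart. As a rough check, since signals of different probes are not comparable in detail, each marker was set against the median gene. All 13 measured markers of B-cell precursors lay above it in both lines, with list means of 10.6 to 10.8. So did 3 of 15 T and NK cell markers and 2 of 12 fibroblast markers, PDGFRA among the latter. Of 8 mature B and plasma cell, 10 erythroid and 10 epithelial markers, 1 each did. Of 15 myeloid markers 0 did, with list means of 3.60 to 3.79. Within the precursor list CD24 was called higher (0.40), and CD22 (-0.72) and VPREB1 (-0.35) were called lower. That is 7.69% higher and 15.4% lower, against 5.87% and 8.2% of all genes, with a list median of 0.083. Called members of the lists for other cells were TNFRSF17 and SDC1 (8 mature B and plasma cell markers), LYZ (15 myeloid) and PDGFRA and TAGLN (12 fibroblast), and 0 were called among 15 T and NK cell, 10 erythroid and 10 epithelial markers. TNFRSF17 was higher by 1.60, SDC1 by 1.19, LYZ by 1.34 and PDGFRA by 0.72. The share called higher was 25% of the mature B and plasma cell markers, 6.67% of the myeloid and 16.7% of the fibroblast markers. Over all genes it was 5.87%. The medians of these lists were 0.009, 0.016 and 0.06 in that order. TAGLN lost its call with probe sets averaged and without control replicate 1 (0.133 to 0.344). Array 1 of each group correlated with the other 3 of its group at 0.9922 to 0.9932 over genes, against 0.9966 to 0.9978 among those 3. The mean signal of 33 glycolysis and hypoxia genes was 8.78 on control replicate 1 and up to 9.53 on the other control arrays, and 8.53 against 9.12 to 9.19 in cells labelled CASP1. That of 23 p53 targets was 8.14 against 7.76 to 7.82 in control cells and 8.64 against 8.19 to 8.25 in cells labelled CASP1, and that of 29 ATF4 targets was 9.71 against 9.06 to 9.10 in control cells alone. The part of replicate 1 in each result was not tested beyond leaving it out, and counts without it are given below for several lists.

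The largest difference in signal was that of ARMCX5, a member of a family of armadillo-repeat genes on the X chromosome. It read 2.47, 1.94, 2.12 and 2.17 in control cells and 7.36, 7.58, 7.10 and 7.39 in cells labelled CASP1. The line labelled CASP1 thus had signal on every array where the control line lay near the bottom of the scale, and the difference was 5.18 (SE 0.14, adjusted p = 1.03e-13); with so low a control signal no fold is given. TCEAL8, on the same stretch of the X chromosome, was higher by 1.88 (adjusted p = 5.97e-06). Of 21 measured genes of that stretch 3 were called higher (14.3%, against 5.87% of all genes) and 0 lower. The list median was 0.16, or 0.069 without the arrays of replicate number 1. PRPS2, which makes phosphoribosyl pyrophosphate for nucleotides, read 3.82, 3.75, 3.33 and 3.94 against 7.04, 6.91, 7.07 and 7.05. Its difference was 3.31 (SE 0.12, 9.91-fold, adjusted p = 5.8e-12), and both of its probe sets were called.

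CD59, which stops complement from piercing the membrane, lay at 3.39 to 4.01 in control cells and at 6.41 to 6.78 in cells labelled CASP1, a difference of 2.86 (SE 0.20, adjusted p = 7.62e-08). B4GALT6, which adds galactose to glycosphingolipids, was higher by 2.98 (adjusted p = 8.77e-05), although control replicate 1 read 5.53 and the other control arrays 3.37 to 3.80. Of its 5 probe sets 2 were called. NRCAM, a neuronal adhesion molecule, was higher by 2.51, KLRC3, a lectin-like receptor of natural killer cells, by 2.50, the neuropeptide gene NPY by 2.23 and the cannabinoid receptor gene CNR1 by 2.06. For each of these 4 the lines did not overlap on any array, and adjusted p lay between 1.4e-05 and 0.000713. A call and groups without overlap were conditions for the 15 largest rises and the 15 largest falls, so neither adds support for a gene picked that way. Probe sets called were 3 of 5 for CD59, 3 of 5 for NRCAM, 4 of 4 for KLRC3, 1 of 1 for NPY and 1 of 2 for CNR1. KLF10, a transcription factor of the early response to TGF-beta, varied little within either line, at 6.75 to 6.89 against 8.97 to 9.01 (difference 2.18, SE 0.099, adjusted p = 1.03e-10). TP53INP1 (2.25), HSBP1L1 (2.16), DAPL1 (2.08), SOCS6 (2.04) and ZNF256 (2.02) complete the 15 largest rises among genes whose groups did not overlap.

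The largest fall was MTFR2, a regulator of mitochondrial fission. Its signal was 10.90, 10.94, 10.95 and 10.97 in control cells and 8.25, 8.50, 8.45 and 8.47 in cells labelled CASP1. The gap was many times the spread on either side (-2.52, SE 0.080, 5.74-fold lower, adjusted p = 6.38e-13), and the gene has 1 probe set. SCML4, a Polycomb-related gene, was lower by -2.38, CMPK2, a mitochondrial nucleotide kinase that interferon induces, by -2.33, and GLDC, the decarboxylase of the glycine cleavage system, by -2.13. Probe sets called were 1 of 3 for SCML4, 1 of 3 for CMPK2 and 2 of 2 for GLDC. In GLDC the control arrays read 6.73 to 7.31 and the labelled arrays 4.52 to 5.41. The falls further held TTN, titin of muscle, at -1.99, ATP4B, a subunit of the gastric proton pump, at -2.12, and NRXN3, a synaptic adhesion molecule, at -1.79. GADL1 (-1.98, 1 of 2 probe sets called), TMIE (-1.93), SPIRE1, an actin nucleator (-1.91), and CAPSL (-1.90) followed, and CASP1, IL1B, BCL2 and IL7R make up the rest of the 15 largest falls.

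TXNIP encodes a protein that binds thioredoxin, holds back glucose uptake and can bind NLRP3. Its transcription is driven by the glucose-sensing factors MondoA and ChREBP through a carbohydrate response element, a pair of E-box-like half-sites. TXNIP read 9.04, 8.63, 8.98 and 8.97 in control cells and 12.21, 12.10, 12.11 and 12.08 in cells labelled CASP1. All 4 labelled arrays lay above all 4 control arrays, the difference was 3.22 (SE 0.12, 9.30-fold, adjusted p = 5.8e-12), and all 5 probe sets were called. ARRDC4, its relative among the alpha-arrestins and another gene known to be driven by MondoA, read 5.44 to 5.86 against 6.99 to 7.49, a 3.25-fold change (SE 0.12 on the log2 scale, adjusted p = 3.56e-08). The promoter stretch of TXNIP is shown because it holds the element: the letters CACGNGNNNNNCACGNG, searched on both strands with N for any base, were found in 18 of 14425 promoter windows of measured genes (0.125%), each from 250 bases before to 50 bases after the start in RefSeq (GRCh38.p14). They lie in TXNIP at -88 to -72 from the start, on the minus strand gene at chr1:145996580-145996699, and were not found in the window of ARRDC4, so that 1 of 14 windows of the list holds them. The match, both half-sites and the bases between, is in capitals:
TXNIP: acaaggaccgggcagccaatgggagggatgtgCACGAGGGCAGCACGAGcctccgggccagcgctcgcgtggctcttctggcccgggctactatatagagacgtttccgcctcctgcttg

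Several genes of glucose uptake and glycolysis were lower. SLC2A1, the glucose transporter GLUT1, read 7.46 on control replicate 1 and 8.36 to 8.49 on the other control arrays, against 6.92 on labelled replicate 1 and 7.27 to 7.51 on the other labelled arrays. Within each line replicate 1 was lowest, and control replicate 1 overlapped the labelled arrays (difference -0.92, SE 0.24, adjusted p = 0.0129). PFKFB3, which makes the activator of phosphofructokinase, was lower by -1.16 (adjusted p = 0.0087) and PKM, pyruvate kinase, lay at 8.71 to 9.05 against 7.77 to 8.12 (adjusted p = 5.81e-05). For PFKFB3 averaging the probe sets gave -0.33 (adjusted p = 0.0802), and for PKM 3 of 6 probe sets were called. HK2, a hexokinase, was lower by -1.22 (adjusted p = 0.0488) with overlapping groups, and this call ended without any 1 of 7 arrays, all but control replicate 1 (-1.37 to -0.82, adjusted p = 0.051 to 0.174). It also ended with only the 8 untreated arrays fitted, with quantile normalization repeated, with centring on the 75th percentile and with the trended, robust variance (adjusted p = 0.0568 to 0.0784).

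In the list of 33 glycolysis and hypoxia genes, 2 were called higher and 6 lower (18.2%, against 8.2% of all genes), with a median difference of -0.24. The 6 became 14 with the replicate number as a block, 3 without control replicate 4 and 19 without the arrays of replicate number 1, where the median was -0.295. The 2 higher (6.06%, near the 5.87% of all genes) became 1 without any single array but labelled replicate 1, and 4 without the arrays of replicate number 1.

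BCL2, the anti-apoptotic protein that protects lymphoid cells, was the member of its family that differed most. Its signal was 8.99, 8.86, 8.74 and 8.77 in control cells and 7.53, 6.75, 6.70 and 6.92 in cells labelled CASP1. The lowest control array lay well above the highest labelled array, the difference was -1.87 (SE 0.21, 3.65-fold lower, adjusted p = 1.27e-05), and all 6 probe sets were called. Of the 5 other measured anti-apoptotic members, 3 were called higher: BCL2L2 by 0.38, MCL1 by 0.36 and BCL2L1 by 0.33. These 3 rest on 1 probe set each; with the probe sets averaged their differences were 0.02, 0.11 and 0.17, and none was called. The count of 3 was 1 without control replicate 4 or labelled replicate 1. MCL1 lost its call without control replicate 2 or 4 or labelled replicate 1 (0.29 to 0.34), and BCL2L1 without control replicate 1 or 4, any 1 labelled replicate (0.25 to 0.36) or all arrays of replicate number 1 (0.18). BMF, a BH3-only protein that opposes BCL2, was higher by 0.79 (adjusted p = 0.000282), with 1 of its 4 probe sets called (averaged: 0.23, adjusted p = 0.156). It was the 1 called member of the 15 pro-apoptotic genes (6.67%, near the 5.87% of all genes called higher).

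Of 22 death receptors, caspases and inhibitors 5 were called higher (22.7%, against 5.87% of all genes; 3 without control replicate 2) and 2 lower (9.09%, near the 8.2% of all genes). FAS, a death receptor and p53 target, read 6.46 on control replicate 1 and at most 5.67 on the other control arrays, against 7.53 and 6.59 to 6.75 in cells labelled CASP1. Replicate 1 was the highest array of each line, and the lines did not overlap (1.10, SE 0.29, adjusted p = 0.0142), but the call ended without control replicate 2 (1.01) or labelled replicate 1 (0.89). CFLAR, which blocks caspase 8 at such receptors, was higher by 0.87 (adjusted p = 8.35e-06). Of its 9 probe sets 6 had a positive difference and 3 were called. MLKL, the executioner of necroptosis, was lower by -1.11 (SE 0.12, adjusted p = 7.41e-06), at 6.68 to 6.90 against 5.61 to 5.77.

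Signalling from the precursor B-cell receptor, which drives expansion of pre-B cells, had more lower than higher members. Of 21 genes, 7 were called lower (33.3%, against 8.2% of all genes) and 1 higher, with a median of -0.26; without the arrays of replicate number 1 the counts were 11 and 2. CD22, an inhibitory coreceptor and target of antibody therapy, read 7.18 to 7.52 in control cells and 6.60 to 6.73 in cells labelled CASP1 (difference -0.72, SE 0.13, adjusted p = 0.000893). The adaptor LCP2 was lower by -0.67 and the kinase BLK by -0.61. INPP5D, the phosphatase SHIP1 that dampens this signal, was higher by 0.60 (adjusted p = 0.00159), with 1 of its 4 probe sets called.

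The interleukin 7 receptor, which supports survival of early B cells through JAK and STAT5, was lower. IL7R read 10.05, 9.94, 9.86 and 10.02 in control cells and 8.28, 8.02, 8.03 and 8.16 in cells labelled CASP1. No array of one line came near the other (-1.85, SE 0.084, 3.60-fold lower, adjusted p = 1.03e-10), and all 3 probe sets were called. Of the 23 genes of its pathway 7 were called higher (30.4%, against 5.87% of all genes), and IL7R was the 1 called lower (4.35%, against 8.2%). Among the higher were SOCS6, a suppressor of cytokine signalling (2.04), and the survival kinase PIM2 (0.88, adjusted p = 0.000417). The count of 7 was 4 without control replicate 1 or labelled replicate 1, and 10 without all arrays of that number.

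Among 33 B-lineage regulators and recombination genes, 3 were called higher (9.09%, against 5.87% of all genes) and 5 lower (15.2%, against 8.2%), and the counts were 8 and 9 without the arrays of replicate number 1 (higher: 5 with the replicate block). BCL6, the repressor that protects pre-B and germinal centre cells from DNA damage responses, read 7.86, 8.18, 8.14 and 8.14 in control cells and 6.89, 6.29, 5.96 and 6.18 in cells labelled CASP1. It was lower by -1.75 (SE 0.24, 3.37-fold, adjusted p = 8.56e-05) on every labelled array. ERG, an ETS factor, was lower by -0.96 (adjusted p = 0.00199), although 1 of its 12 probe sets was called higher and their mean was not called (-0.42, adjusted p = 0.0611). IRF8 was lower by -0.79, with 1 of its 3 probe sets called, and ID4, an inhibitor of E proteins, higher by 0.94.

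Antigen presentation by MHC class II is controlled by CIITA, the coactivator without which class II genes are silent. CIITA read 6.48, 7.04, 7.15 and 7.14 in control cells and 4.66, 5.31, 5.51 and 5.78 in cells labelled CASP1, so the lines did not overlap (-1.63, SE 0.32, 3.10-fold lower, adjusted p = 0.00182). Of its 4 probe sets 1 was called. In the list of 18 class II genes 3 were called lower (16.7%, against 8.2% of all genes) and 1 higher (5.56%, near the 5.87% of all genes). Without the arrays of replicate number 1, 8 were lower. HLA-DQA1 (-0.94, adjusted p = 0.00666, 1 of 4 probe sets called) and IFI30, a lysosomal thiol reductase (-0.46), were lower with CIITA. CTSS, a protease that trims the invariant chain, was higher by 0.55. The inhibitory receptor LAIR1 was lower by -0.98 and the activating receptor LILRA2 by -1.25. They were the 2 genes called of 21 immunoglobulin-like and Fc receptors (9.52%, near the 8.2% of all genes called lower). With its probe sets averaged LILRA2 was not called (-0.39, adjusted p = 0.0737). Of 42 interferon-stimulated genes 5 were called higher (11.9%, against 5.87% of all genes; 3 without labelled replicate 1) and 7 lower (16.7%, against 8.2%; 11 without the arrays of replicate number 1). Among the lower were CMPK2 and the helicase DDX60 (-0.98).

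The gene group with the most members lower was that of MYC and the nucleolus, where ribosomes are built under the control of MYC. Of 37 genes, 25 were called lower (67.6%, against 8.2% of all genes) and 3 higher, with a median difference of -0.53 against 0.0066 for all genes; leaving out 1 array at a time gave 22 to 24 lower. MYC itself read 12.18 to 12.30 in control cells and 11.75 to 11.93 in cells labelled CASP1, a difference of -0.40 (SE 0.086, adjusted p = 0.00386). POLR1B, the second subunit of RNA polymerase I, read 8.25, 8.36, 8.35 and 8.21 against 6.42, 7.52, 7.38 and 7.39. Labelled replicate 1 was the lowest array and the lines did not overlap without it either (-1.12, SE 0.21, adjusted p = 0.00156; all 6 probe sets called). RRS1 (-1.10) and PPAN (-1.09), both assembly factors of the large ribosomal subunit, were lower by as much. The 3 higher members were the MXD genes, whose products compete with MYC for its partner MAX, with MXD1 at 6.10 to 6.28 against 7.18 to 7.29 (1.04, SE 0.099, adjusted p = 1.95e-06). Of the 2 MXD1 probe sets 1 was called.

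The E-box CACGTG, the letters MYC and MXD proteins recognise with MAX, was searched in the same promoter windows; it reads alike on both strands. It was found in 1272 of 14425 windows (8.82%), in 11 of 31 of this list (35.5%), in 6 of 19 of the called lower members (31.6%), in 176 of 1236 of all genes called lower (14.2%) and in 69 of 854 of all called higher (8.08%). A match is a description of the letters and no evidence of binding. NAT10 (an RNA acetyltransferase, difference -0.68) and UTP4 (a processome subunit, -0.61) are shown as the called lower members with the letters close before the start, at chr11:34105559-34105628 and chr16:69132579-69132648, both on the plus strand, with the E-box in capitals:
NAT10: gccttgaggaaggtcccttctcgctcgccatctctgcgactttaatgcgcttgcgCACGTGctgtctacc
UTP4: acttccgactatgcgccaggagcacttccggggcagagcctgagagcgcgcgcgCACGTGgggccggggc

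Enzymes that feed nucleotide and methyl group synthesis were lower in part. Of 29 nucleotide synthesis genes 8 were called lower (27.6%, against 8.2% of all genes) and 3 higher (10.3%, against 5.87%). Without the arrays of replicate number 1 the counts were 12 and 5. PRPS2 was the largest of the higher ones. PFAS, of purine synthesis, read 8.78 to 8.92 against 7.31 to 7.88 (-1.12, adjusted p = 0.000235), and GART, which works in the same pathway, 8.66 to 8.83 against 7.67 to 7.82 (-0.97, adjusted p = 1.48e-05). Probe sets called were 1 of 4 for PFAS and 4 of 5 for GART. The median of 18 serine, glycine and one-carbon genes was -0.34, or -0.146 without the arrays of replicate number 1. Of the 18 genes 9 were called lower (50%, against 8.2% of all genes) and 0 higher. Besides GLDC they included MTHFD2L, a mitochondrial folate enzyme (-1.14), ALDH18A1, of proline synthesis (-0.79), and MAT2A, which makes S-adenosylmethionine (-0.66). The count of 9 was 5 without control replicate 1 or labelled replicate 2, 3 or 4.

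Mitosis and DNA replication are parts of one cycle, and their lists had most of their calls in opposite directions. Of 34 genes of G2 and mitosis 24 were called higher (70.6%, against 5.87% of all genes) and 0 lower, with a median of 0.54, and leaving out 1 array at a time gave 20 to 24. MKI67, the antigen used to stain cycling cells, read 9.54, 9.41, 9.52 and 9.53 in control cells and 11.30, 11.06, 11.03 and 10.97 in cells labelled CASP1. All labelled arrays were higher (1.59, SE 0.16, 3.01-fold, adjusted p = 4.13e-06). KIF20A, a kinesin of cytokinesis, was higher by 1.42 (adjusted p = 4.08e-05), AURKA, the spindle pole kinase, by 1.07 (adjusted p = 0.00111) and KIF2C, a kinesin that takes microtubules apart, by 0.87 (adjusted p = 0.000346). On the mean signal of the list the control arrays lay at 9.38 to 9.60 and the labelled arrays at 9.98 to 10.14, with replicate 1 highest in both lines.

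Mitotic genes are known to share the cell cycle homology region, whose letters TTTGAA the DREAM and MuvB complexes bind. On both strands these letters were found in 1742 of 14425 promoter windows (12.1%), in 19 of 28 windows of the mitosis list (67.9%), in 15 of 21 of its called higher members (71.4%) and in 0 of 33 of the replication list. They stood in 117 of 854 windows of all genes called higher (13.7%) and in 109 of 1236 of all called lower (8.82%). The last 70 bases before the start are shown for 6 called higher members, to show where the letters (in capitals) lie; MKI67 and HMMR have 2 copies each. Positions are chr10:128126424-128126493 (MKI67, minus strand), chr1:43358911-43358980 (CDC20, plus), chr15:69414279-69414348 (KIF23, plus), chr15:90994536-90994605 (PRC1, minus), chr5:163460562-163460631 (HMMR, plus) and chr15:59105076-59105145 (CCNB2, plus). Their differences ran from 0.64 (HMMR) to 1.59 (MKI67):
MKI67: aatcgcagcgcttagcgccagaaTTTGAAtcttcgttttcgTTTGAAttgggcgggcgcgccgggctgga
CDC20: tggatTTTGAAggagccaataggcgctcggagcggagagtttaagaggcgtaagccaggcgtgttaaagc
KIF23: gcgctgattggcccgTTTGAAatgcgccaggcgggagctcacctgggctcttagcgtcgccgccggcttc
PRC1: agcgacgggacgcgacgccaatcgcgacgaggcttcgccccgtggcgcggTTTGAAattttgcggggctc
HMMR: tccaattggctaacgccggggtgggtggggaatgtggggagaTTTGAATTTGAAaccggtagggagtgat
CCNB2: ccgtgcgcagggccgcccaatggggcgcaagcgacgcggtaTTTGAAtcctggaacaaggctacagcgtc

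Of 39 DNA replication genes 14 were called lower (35.9%, against 8.2% of all genes) and 1 higher, with a median of -0.22; 20 were lower without the arrays of replicate number 1. MCM4, of the replicative helicase, read 10.57, 10.98, 10.82 and 10.75 in control cells and 10.01, 10.13, 10.12 and 10.27 in cells labelled CASP1 (-0.64, SE 0.13, adjusted p = 0.00187; all 5 probe sets called). The lines did not overlap. MCM3 (-0.56) and CDC45 (-0.56), of the same helicase, and UHRF1, which carries DNA methylation through replication (-0.55), followed. Of 27 repair and checkpoint genes 7 were called lower (25.9%, against 8.2% of all genes) and 0 higher. The lower ones were led by UNG, the uracil glycosylase (-1.02, adjusted p = 0.000712), and CHEK1, the replication checkpoint kinase (-0.67, adjusted p = 6.29e-05).

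At the entry to S phase, 2 of 24 G1 genes were called higher (8.33%, against 5.87% of all genes) and 3 lower (12.5%, against 8.2%). The list median was 0.05, and without the arrays of replicate number 1 the counts were 6 and 6. CDKN1B, the cycle inhibitor p27, was higher, at 9.14 to 9.79 against 10.11 to 10.30 (0.61, SE 0.12, adjusted p = 0.00147). CDK6, the G1 kinase, was lower, at 11.75 to 11.90 against 11.01 to 11.32 (-0.69, SE 0.087, adjusted p = 3.15e-05). SKP2, which marks p27 for destruction, was higher by 0.37 (adjusted p = 0.021) by 1 of its 2 probe sets. Their mean gave -0.09 and no call, and the call also ended without control replicate 2 or 3 or labelled replicate 3 or 4 (0.33 to 0.36). Of 23 p53 targets 10 were called higher (43.5%, against 5.87%) and 1 lower, with a median of 0.45; without the arrays of replicate number 1 the counts were 15 and 2. TP53INP1 read 6.89, 6.93, 7.01 and 7.16 in control cells and 9.83, 8.97, 9.09 and 9.09 in cells labelled CASP1 (2.25, SE 0.19, adjusted p = 6.69e-07), but its other probe set had the opposite sign and was not called. ZMAT3 (0.90) and XPC (0.82) were higher too, with replicate 1 the highest array of both lines, and ZMAT3 was not called with probe sets averaged (0.69, adjusted p = 0.0828). The 1 called member of 31 cytosolic ribosomal protein genes was RPS27L, a paralogue known as a p53 target (0.61, adjusted p = 0.000627).

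Clustered histone genes, whose polyadenylated forms are known from cells leaving the cycle, had 5 of 17 members called higher (29.4%, against 5.87% of all genes) and 0 lower. H2BC12 read 6.76, 6.72, 6.69 and 6.70 in control cells and 8.34, 8.54, 8.45 and 8.43 in cells labelled CASP1. No array of either line lay near the other line (1.72, SE 0.0925, 3.30-fold, adjusted p = 1.54e-09), although 1 of its 2 probe sets was not called. H2BC21 was higher by 1.66 (adjusted p = 3.86e-07), with 1 of its 3 probe sets called.

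Among stress programmes, endoplasmic reticulum chaperones had 7 of 23 members called lower (30.4%, against 8.2% of all genes) and 0 higher. The 7 became 4 without control replicate 3 or 4. SDF2L1 was lower by -0.87 and the disulphide isomerase PDIA4 by -0.61. Autophagy, lysosome and FOXO target genes had 8 of 34 higher (23.5%, against 5.87% of all genes) and 2 lower (5.88%, against 8.2%). Without the arrays of replicate number 1 the counts were 13 and 1. The 2 lower were 0 without control replicate 2, 3 or 4 or labelled replicate 1 or 3, and 1 without any other single array. Members included WIPI1, of the autophagosome membrane, higher by 1.06 and SESN3, a FOXO target, by 0.81. Heat shock genes were split, 3 higher (16.7%, against 5.87% of all genes) and 5 lower (27.8%, against 8.2%) of 18. The 5 became 2 with centring on the 75th percentile and without any 1 of control replicates 2 to 4 or labelled replicates 1 or 2. They became 3 without labelled replicate 3 (higher: 5 with the replicate block). HSPA6, an inducible HSP70, was higher by 0.98 from low signals. Single genes of signalling also differed: PHLDA1, a target of MAPK signalling, at 5.41 to 5.56 against 7.01 to 7.25 (1.67, adjusted p = 1.01e-08), the MAPK phosphatase DUSP6 (-0.97, adjusted p = 0.000311) and NFKBIZ, an atypical NF-kappaB inhibitor (1.57, adjusted p = 5.71e-07).

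Some lists lay under the background of 5.87% higher and 8.2% lower. Respiratory chain subunits had 1 higher and 1 lower of 34, cancer-testis and germline genes 0 and 0 of 24, and HOX and TALE genes 0 and 1 of 20. Above it, glucocorticoid-induced genes had 8 higher (21.6%) and 5 lower (13.5%) of 37 without any drug, TXNIP and TP53INP1 leading the higher ones with SGK1 (1.26, adjusted p = 0.00551) and IL7R the lower ones. The count of 5 was 3 without control replicate 3 or labelled replicate 2, 3 or 4. Over the 42 lists, 17 had more members higher than lower and 21 more lower than higher.

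**Figure D3:**
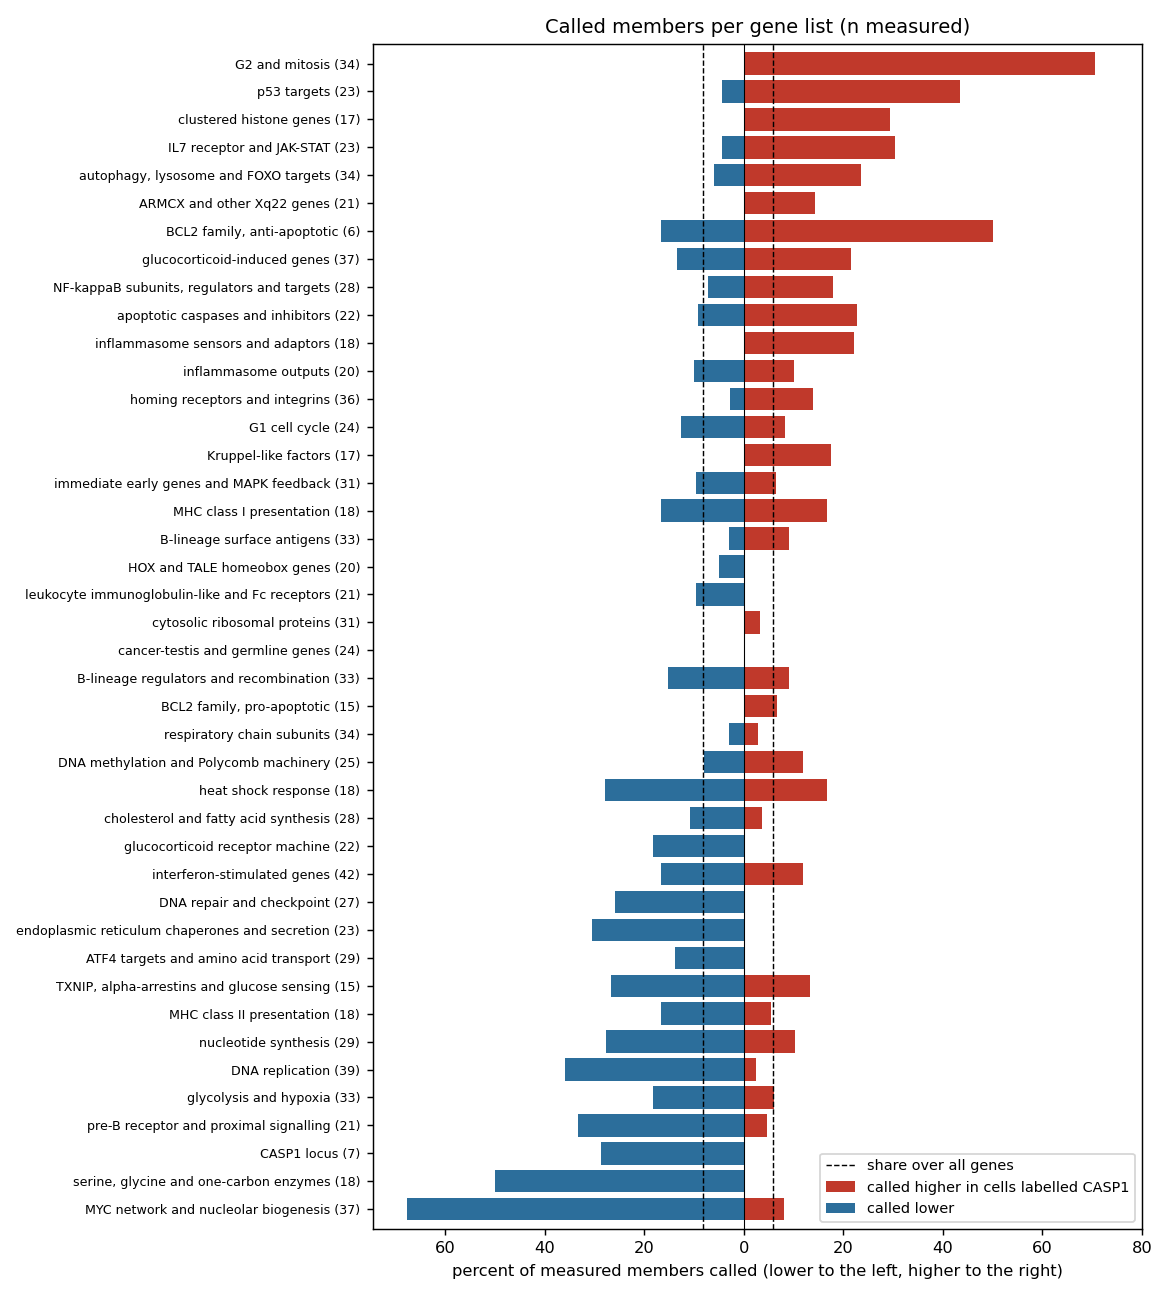
Percent of measured members called higher (red, to the right) and lower (blue, to the left) in cells labelled CASP1 for 42 gene lists sorted by median difference, number measured in parentheses; dashed lines mark the share over all genes, 5.87% higher and 8.2% lower. G2 and mitosis (70.6% higher) and MYC network and nucleolar biogenesis (67.6% lower) stand at the ends.

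**Figure D4:**
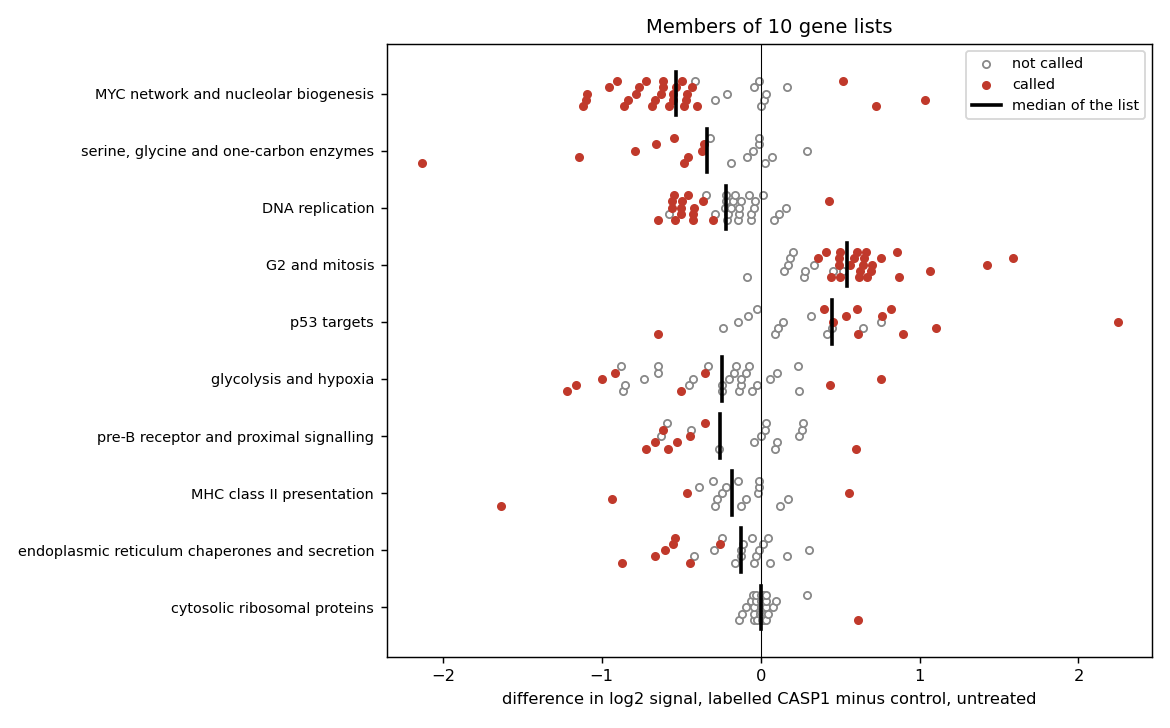
Difference in log2 signal, labelled CASP1 minus control, of every measured member of 10 lists (points; red where called), with the median of each list as a bar. Medians run from -0.53 (MYC network and nucleolar biogenesis) to 0.54 (G2 and mitosis), and ribosomal protein genes lie around 0.005.

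The lines were compared again on the 8 arrays with prednisolone, which are other arrays than those above, although the fit shares its estimate of the spread. There 2974 genes were called (16.4%). Of the 1065 genes higher without the drug 589 were higher with it, which is 55.3% of the untreated list and 41.2% of the treated one, and 998 had the same sign. Of the 1487 lower genes 863 were lower again, 58.0% and 55.9% of the lists, and 1392 had the same sign. Genes called the other way with the drug numbered 5 of those higher and 6 of those lower.

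Several of the large differences were also called on these arrays. With prednisolone ARMCX5 was higher by 4.46 (interaction -0.72, SE 0.20, adjusted p = 0.121), PRPS2 by 2.99, MTFR2 lower by -2.54, CASP1 by -1.93 and POLR1B by -1.14, and the interaction, the treated minus the untreated difference, was not called for any of these 5. Over all 18132 genes, 1429 were called higher and 1545 lower with prednisolone, the background for list counts with the drug. The mitosis list had 30 of 34 members higher and 0 lower with prednisolone (median 0.87). Other differences depended on the drug: the interaction was called for 161 genes (0.888%). That count was 289 with the replicate block, 727 without the arrays of replicate number 1, and 98 to 103 without control replicate 3 or 4 or labelled replicate 2 or 3. Of the 161, 83 were called in untreated cells, 63 of them with the larger difference there. Picking genes by their untreated call favours such genes, so the 63 do not show that the drug narrowed the difference between the lines. TXNIP differed by 3.22 without and 0.58 with prednisolone (interaction adjusted p = 1.05e-07), TP53INP1 by 2.25 and -0.57, BCL2 by -1.87 and -0.23, IL7R by -1.85 and -0.70 and BCL6 by -1.75 and -0.27. SCML4 (-2.38 and -3.65), HSPA6 (0.98 and 2.18) and SKP2 (0.37 and 1.60) went the other way, to a larger difference with the drug. Of the 39 replication genes 14 were called lower and 1 higher without the drug, and 1 lower and 13 higher with it; the interaction was called for 9. UHRF1 was called lower both times (-0.55 and -0.40), and MCM4 (-0.02) and MCM3 (0.05) were not called with the drug. NR3C1, not called without the drug (-0.03), was called lower with it (-0.42, SE 0.098, adjusted p = 0.00587). Its interaction was not called (adjusted p = 0.268).

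Beside these stands the response of control cells to prednisolone, which shares the untreated control arrays with the line difference, so that no test or correlation of one with the other is given. With the drug TXNIP changed by 3.82 in the control line and 1.19 in the line labelled CASP1, to means of 12.73 and 13.31. BCL2 changed by -2.46 and -0.82, IL7R by 0.41 and 1.56 and SKP2 by -1.73 and -0.50 in that order. Whether TXNIP signals this high narrow the measured difference between the lines was not tested.

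**Figure D5:**
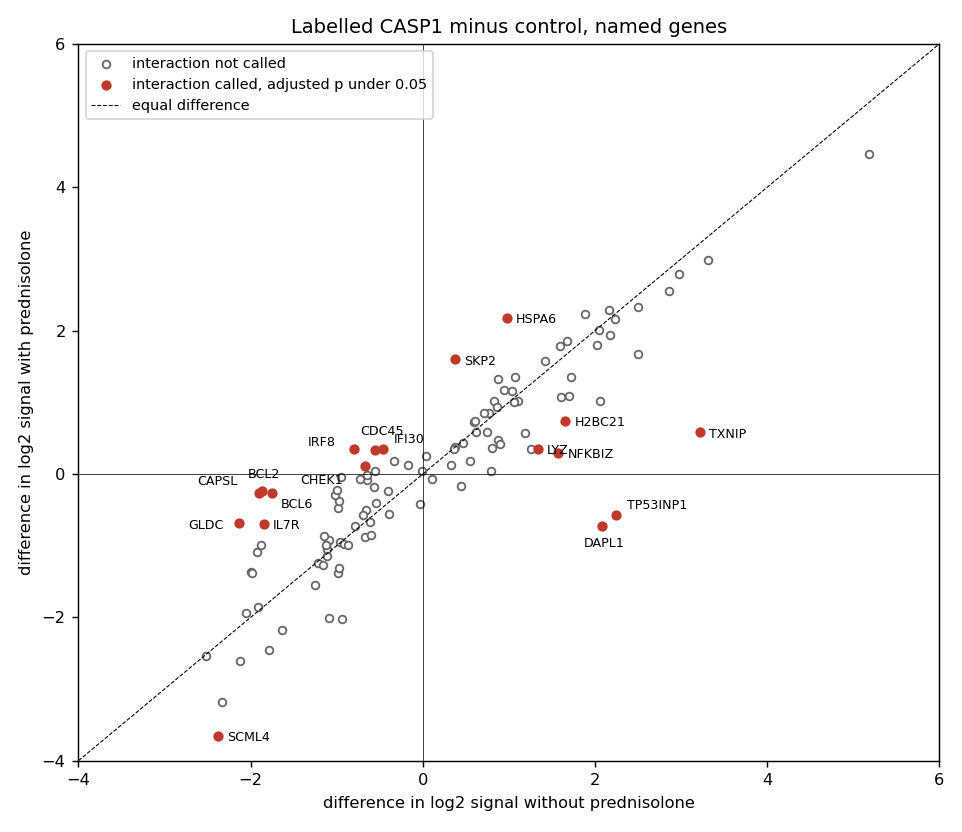
Difference in log2 signal, labelled CASP1 minus control, with prednisolone (vertical axis) against without (horizontal axis), for the genes named in the text; red points have a called interaction and the dashed line marks equal differences. ARMCX5 lies near the line at 5.18 and 4.46, TXNIP far below it at 3.22 and 0.58.

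Along the chromosomes, 18078 genes were placed by RefSeq order. Chromosome 18 had the highest share of genes called lower (38 of 256, 14.8%, with 7.42% higher) and chromosome 6 the highest share called higher (80 of 988, 8.1%), against 8.2% and 5.87% over all genes. There were 3 runs of 4 neighbours all called one way: TLE6, TLE2, TLE5 and GNA11 on chromosome 19, higher by 0.32 to 1.25; GUSBP2, H2BC11, H2AC11 and H2BC12 in the histone cluster of chromosome 6, higher by 0.38 to 1.72; and HIVEP2, AIG1, ADAT2 and PEX3 on the same chromosome, lower by -1.10 to -0.76. These genes were singled out by position after their values were seen. All 12 had the same sign on the prednisolone arrays, as had 998 of the 1065 genes called higher and 1392 of the 1487 called lower.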

How the data were processed

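Total RNA of 16 Nalm6 samples was measured on Affymetrix PrimeView arrays, with 4 arrays in each of 4 groups. The authors deposited log2 values for each probe set; RMA is named in the submitters' processing notes, and the sources used here give no software version or genome build. Each of the 49395 probe sets was named by the platform annotation. Of the 44988 that name a single gene, each gene's brightest by mean signal on the 16 arrays was kept (18132 genes, of which 18112 matched the RefSeq table by Entrez identifier), while 1832 with several genes, 2473 with none and 102 controls were not used. Untreated array medians were 4.85 to 4.92. The number of arrays limits the precision.

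All 16 arrays were fitted with limma 3.58.1 under R 4.3.3 (4 group means, 12 residual and 5.46 prior degrees of freedom, no trend, not robust), a script tested on simulated data. Every adjusted p is from this moderated two-sided test by Benjamini and Hochberg over all genes, with a gene called under 0.05, except where an exact permutation is named. Gene lists numbered 49, with 1063 measured genes, and were described by counts and medians, with no set test. For same-numbered untreated arrays the correlations of deviations from the group means were 0.434, 0.147, 0.167 and 0.18. Each was over 0.1, so the replicate number was taken to pair the arrays in a blocked fit. The reported fit does not pair them. Only number 1 stood clear of differently numbered pairs: among numbers 2 to 4 those reached -0.011 to 0.204, and the labels do not say what it marks. A blocked fit was 1 of 16 alternatives, with arrays of replicate number 1 left out, each array left out, other normalization, filter, probe set choice and variance model.

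Named were CASP1, NR3C1, the 15 largest rises and 15 largest falls among called genes whose groups did not overlap, passing over placeholder symbols, up to 4 called members of each list, the CASP1 locus, and NLRP3 and MYC by title and list name. NAT10, UTP4 and 5 mitosis genes were added for their promoter letters, and the genes of runs for their position. Members, lists, motifs and alternatives were chosen with earlier results of these data known. Promoter windows came from RefSeq (GRCh38.p14) for 14425 of the genes; the arrays' own build is not named, and no other coordinates are given.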

Additional observations from a re-analysis of the deposited data

Results flagged for a closer look

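In 30 of 230 groups of 4 arrays, looked at for the genes named, 1 array lay far from the other 3: the gap to its nearest neighbour as a share of the range was above Dixon's critical value. Chance alone flags about 1 in 20 groups. Replicate 1 was that array in 26 of the 30.

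In control cells replicate 1 was the low array, with the gap as a share of the range, for NR3C1 (0.863), NRCAM (0.936), TTN (0.931), BCL6 (0.862), ID4 (0.873), H2BC21 (0.854) and DUSP6 (0.931). The same held for the glycolysis genes HK2 (0.88), SLC2A1 (0.874), PFKFB3 (0.95) and PKM (0.835). It was the high array for FAS (0.83), AURKA (0.907), XPC (0.878) and WIPI1 (0.928).

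In cells labelled CASP1 replicate 1 was low for NRCAM (0.835), POLR1B (0.873), PPAN (0.91), PFAS (0.867), HK2 (0.936) and PDGFRA (0.951). It was high for TP53INP1 (0.862), BCL2L1 (0.872), KIF2C (0.91), ZMAT3 (0.938) and RPS27L (0.912). The other 4 such groups were CD59 in control cells (replicate 3, 0.857) and in cells labelled CASP1 (replicate 2, 0.958), CAPSL in control cells (replicate 3, 0.887) and PHLDA1 in control cells (replicate 4, 0.9).

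For 18 named genes the difference between the lines itself changed with prednisolone, by limma's interaction test at an adjusted p under 0.05. The treated minus the untreated difference was below 0 for TP53INP1 (-2.81), DAPL1 (-2.80), TXNIP (-2.63), NFKBIZ (-1.28), SCML4 (-1.27), LYZ (-0.99) and H2BC21 (-0.91). It was above 0 for CAPSL (1.64), BCL2 (1.63), BCL6 (1.49), GLDC (1.45), SKP2 (1.23), HSPA6 (1.20), IL7R (1.15), IRF8 (1.14), CDC45 (0.89), IFI30 (0.82) and CHEK1 (0.78). With the drug 9 of these 18 differences were smaller with the same sign, 3 were larger with the same sign and 6 had the other sign. Most named genes were picked by their untreated differences or calls, which favours smaller differences with the drug, so these counts show no general direction.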

How the results depend on the processing

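Over 16 alternatives the count of genes called in untreated cells ran from 1979 to 3876. Leaving out 1 untreated array at a time gave 1979 to 2368 (lower: 1157 to 1417; higher: 797 to 951), and leaving out the arrays of replicate number 1 gave 3876 with 2329 lower, above 1.5 times the 2552 and 1487 of the reported fit. With the replicate number as a block 3213 genes were called, 2539 of them among the 2552, and of the genes named only CASP4 changed its call. The interaction count of 161 became 289 with the replicate block and 727 without the arrays of replicate number 1, and ran from 98 to 164 without 1 array. CASP1 kept its call and direction under all 16. Of 159 called genes named by the rule, 128 kept their call under every alternative that tested them; SKP2 alone changed sign, to -0.089 with the mean of its probe sets, which also changed the sign of 3 of the 2021 calls it kept. Of 1568 list counts 1370 stayed within 1.5 times. With 4 arrays a group, genes of low signal have little precision. No cause of these changes was tested.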
